A study of Mus musculus with 10 samples.

Results

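Eng, Cd34, Procr, Esam, Emcn, Cd93, Podxl, Cdh5, Pecam1 and Mcam are 10 mouse genes for cell-surface proteins that blood stem and progenitor cells share with the lining of blood vessels. They were taken by gene symbol from a table of RNA levels in sorted bone-marrow progenitors, and they make up 10 of its 23240 genes. All 10 symbols were found once, and 8 of them reached the level needed for testing. Cdh5 and Mcam did not.

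The study asked which genes depend on Runx1, a transcription factor of blood formation, in bone-marrow progenitors. XMP (CD16/32+ CD150+) were sorted from Runx1fl/fl-Tg(vav-Cre) mice alone. Runx1-deleted GMP (CD16/32+ CD150-) and Runx1-deleted MEP (CD16/32- CD150+) came from mice of that same genotype, and wild-type GMP and wild-type MEP came from Runx1+/+-Tg(vav-Cre) mice and were sorted through the same 2 gates. GMP stands for granulocyte-macrophage progenitors and MEP for megakaryocyte-erythrocyte progenitors. Each of the 5 groups held 2 libraries, and both genotypes carried the vav-Cre transgene, whose promoter is active throughout the blood system, so that a floxed Runx1 is removed early in all blood lineages and also in part of the endothelium. Every gate was also lin- sca- kit+, CD41- and CD105-. CD105 is the protein of Eng, so Eng was itself used to choose the cells, at the protein level and in the same way in all 5 groups. Age and sex were not used here. Since no label ties the libraries of a group to separate animals, the p-values reflect the spread among libraries, which may be technical.

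Endothelium and blood stem cells arise from related precursors in the embryo, and Runx1 is needed when blood cells leave the embryonic endothelium. Many surface proteins stay common to both lineages in the adult. Podxl, Cd34 and Emcn encode sialomucins, heavily glycosylated proteins that can either hold cells apart or serve as ligands of selectins. Eng and Procr are receptors or coreceptors for soluble ligands, and Esam, Pecam1, Cdh5 and Mcam are adhesion proteins of cell junctions. Cd93 is a C-type lectin-like protein of endothelium and myeloid cells. CD34 protein is also a classical marker that separates GMP, which carry it, from MEP, which do not.

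Promoter sequence from RefSeq (build GRCm38.p6, from 250 bases before to 50 bases after the transcription start) was found for 5 of the 10 genes, namely Eng, Cd34, Procr, Emcn and Mcam. The promoters of Cd34 and Eng are shown because these genes had the highest levels among those 5. Capitals mark matches, on either strand, to GATAA, the core letters bound by GATA factors, and to GGAAG, core letters bound by ETS factors. The Cd34 window lies at chr1:194938571-194938870 on the plus strand and holds 1 match to GATAA and 1 to GGAAG. The Eng window lies at chr2:32646345-32646644 on the plus strand and holds 2 matches to GGAAG.
Cd34: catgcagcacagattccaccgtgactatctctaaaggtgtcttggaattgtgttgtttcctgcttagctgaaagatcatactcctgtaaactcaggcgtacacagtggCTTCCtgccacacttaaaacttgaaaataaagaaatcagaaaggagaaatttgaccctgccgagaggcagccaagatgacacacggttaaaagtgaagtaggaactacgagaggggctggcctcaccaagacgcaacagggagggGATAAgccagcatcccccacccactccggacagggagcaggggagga
Eng: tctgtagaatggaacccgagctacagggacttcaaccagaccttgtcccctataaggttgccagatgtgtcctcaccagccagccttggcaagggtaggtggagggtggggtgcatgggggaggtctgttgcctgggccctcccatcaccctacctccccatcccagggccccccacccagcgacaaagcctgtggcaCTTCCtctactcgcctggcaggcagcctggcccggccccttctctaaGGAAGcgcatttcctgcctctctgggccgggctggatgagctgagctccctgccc
GATAA was present in 25.4% and GGAAG in 71.4% of the 32851 promoters in the same reference. The letters TGTGGT or TGCGGT, bound by RUNX factors, were searched for on both strands too. They were in 22.4% of all promoters and in none of the 5 windows found for these genes, which says only that those letters are not in these 300 bases.

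Levels are given in RPKM, read counts scaled to the length of the gene and to the reads of the library, as the authors deposited them, with XMP, Runx1-deleted and wild-type libraries listed by replicate number. RPKM is per length, but a length trend that differed between libraries remained, so levels of different genes are only roughly comparable. With each gene centred on its mean, long minus short genes stood at -0.738 log2 in wild-type MEP replicate 1. The value was 0.109 in wild-type MEP replicate 2 and 0.388 in XMP replicate 2. The libraries rested on 20.8 to 54.9 M reads, of which 75.2% to 83.2% fell in genes. Runx1 itself had 85.9 and 78.5 RPKM in XMP, 63.0 and 72.3 in Runx1-deleted GMP, and 28.5 and 26.8 in wild-type GMP. In MEP it had 41.5 and 36.8 RPKM after deletion and 17.2 and 25.5 in wild type. It was higher in every deleted library than in every wild-type library of its gate, and a level over the whole gene does not check the loss of an exon. The gates carried their lineage genes. The summed level of 10 granulocyte-monocyte markers was 7748 to 8102 RPKM in Runx1-deleted GMP and 12287 to 12392 in wild-type GMP, against 137 to 174 in XMP, 32.7 to 34.9 in Runx1-deleted MEP and 42.1 to 57.9 in wild-type MEP. The 2 wild-type MEP libraries, from lanes 3 and 5, stood apart, with a correlation of 0.968 across genes, below the 0.973 reached between libraries of different groups. Replicate 1 reached at most 0.9492 with a library of another group. Replicate 2 reached 0.9715, more than with its own replicate. In GMP the sequencing lane cannot be told apart from the genotype, since Runx1-deleted GMP ran in lane 5 and wild-type GMP in lanes 3 and 2.

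**Figure D1:**
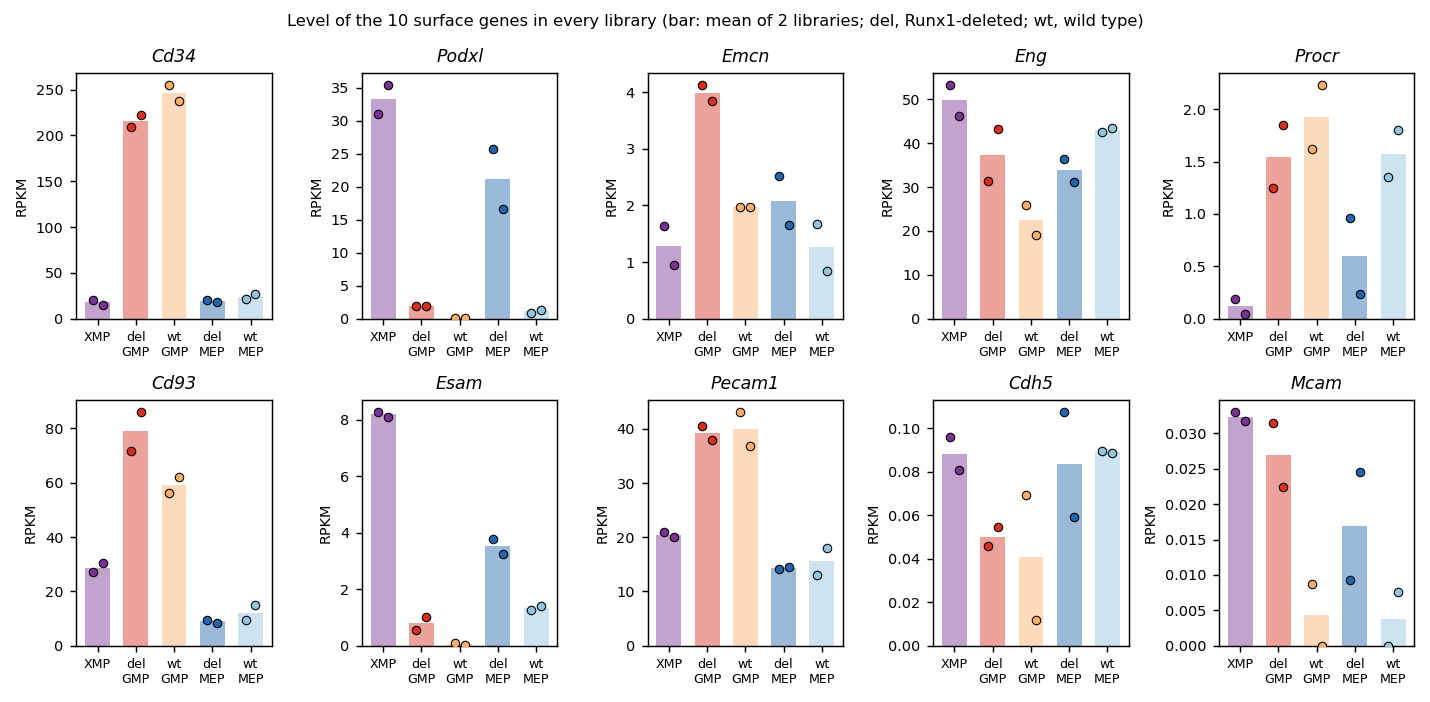
Level of each of the 10 genes (RPKM, linear axis starting at 0 with its own range for each gene) in XMP, Runx1-deleted (del) and wild-type (wt) GMP, and Runx1-deleted and wild-type MEP. Points are single libraries and bars the mean of 2 libraries. Podxl and Esam stand highest in XMP, and Cdh5 and Mcam stay under 0.11 RPKM throughout. Cd34 is far higher in the GMP gate of both genotypes than elsewhere, and Cd93 is higher there, with XMP between the gates.

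Differences between groups were fitted with limma on log2(RPKM + 1) over the 10905 genes that reached 1 RPKM in 2 or more libraries. They are given as log2 ± SE with a Benjamini-Hochberg adjusted p over all genes, and a gene was called at an adjusted p under 0.05. Adding 1 understates the change of a gene at a low level. In bulk RNA, fewer cells with a transcript and less RNA in each cell cannot be told apart.

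Podxl varied most. It encodes podocalyxin, a CD34-related sialomucin of kidney podocytes, endothelium and early blood cells. XMP held 31.1 and 35.4 RPKM, Runx1-deleted GMP 1.87 and 2.001, wild-type GMP 0.071 and 0.126, Runx1-deleted MEP 25.7 and 16.7, and wild-type MEP 0.923 and 1.31. The libraries of the 5 groups did not overlap. The order of the levels, high to low, was XMP, Runx1-deleted MEP, Runx1-deleted GMP, wild-type MEP and wild-type GMP. Wild-type GMP rested on 29 reads over both libraries, and its mean was 338-fold below that of XMP.

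Loss of Runx1 went with higher Podxl in both gates. Podxl rose in Runx1-deleted MEP by 3.36 ± 0.22 (adjusted p = 1.91e-05) and in Runx1-deleted GMP by 1.42 ± 0.22 (adjusted p = 0.00274), each against wild type. Lanes 4 and 5 alone, which leave 1 wild-type MEP library, gave the same call in MEP. Counted as reads, the ratio of Runx1-deleted to wild type was 18.3 in MEP (95% interval 16.7 to 20.1) and 21.5 in GMP (14.9 to 32.3), intervals that cover counting error only. The authors' deposited table, which uses another test, gave Podxl an FDR-corrected p of 0.000235 for Runx1-deleted against wild-type MEP. For Runx1-deleted against wild-type GMP the authors' deposited table gave 0.971.

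Whether the effect of the deletion on Podxl differed between the gates depended on the scale. On log2(RPKM + 1) the effect in GMP minus the effect in MEP was -1.94 ± 0.31 (adjusted p = 0.0108). With 0.1 in place of 1 it was -0.74 ± 0.41 (adjusted p = 0.722). On the reads themselves, fitted with limma-voom, the effects were 4.45 ± 0.54 in GMP and 4.20 ± 0.28 in MEP, and their difference had the other sign, 0.24 ± 0.60 (adjusted p = 0.999). The difference on log2(RPKM + 1) also lost its call without Runx1-deleted GMP replicate 1 (adjusted p = 0.0542), without replicate 2 (0.0591) or without wild-type GMP replicate 2 (0.0644).

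**Figure D2:**
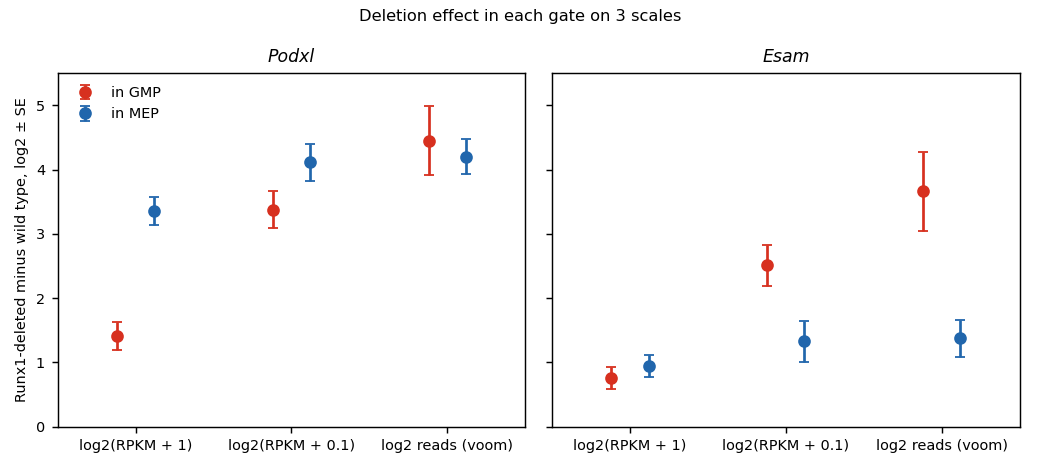
Fitted difference of Runx1-deleted minus wild type (log2, points, with SE bars) for Podxl and Esam, in GMP (red) and in MEP (blue), on log2(RPKM + 1), on log2(RPKM + 0.1) and on reads with limma-voom. The GMP effect of Podxl lies below its MEP effect on the first scale, 1.42 against 3.36, and beside it on reads, 4.45 against 4.20, while for Esam the GMP effect lies above the MEP effect on the other two scales.

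Cd34 followed the gate. It encodes the sialomucin CD34, used to recognise blood progenitors and found on capillary endothelium. Runx1-deleted GMP had 209 and 223 RPKM and wild-type GMP 255 and 237. XMP had 20.2 and 15.2, Runx1-deleted MEP 20.5 and 17.9, and wild-type MEP 21.0 and 27. All 4 GMP libraries lay far above the 6 others, where XMP overlapped Runx1-deleted MEP. In GMP between 1.96% and 2.37% of tested genes were more abundant. XMP carry CD16/32 as GMP do, yet XMP fell by 3.55 ± 0.19 against Runx1-deleted GMP (adjusted p = 2.78e-07), a 12.2-fold lower mean. Against Runx1-deleted MEP the difference of XMP was -0.12 ± 0.19 (adjusted p = 0.819). The wild-type gates differed as much, by 3.32 ± 0.19 for GMP over MEP (adjusted p = 3.29e-07). The difference after deletion was -0.19 ± 0.19 in GMP (adjusted p = 0.57) and -0.30 ± 0.19 in MEP (adjusted p = 0.383), neither past the threshold.

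Emcn, endomucin, is a sialomucin of capillaries and veins that also marks mouse blood stem cells. It had 1.64 and 0.942 RPKM in XMP, 4.13 and 3.84 in Runx1-deleted GMP, and 1.98 and 1.97 in wild-type GMP. The MEP libraries had 2.51 and 1.65 RPKM after deletion and 1.67 and 0.844 in wild type. Runx1-deleted GMP stood above the other 8 libraries, which overlapped in part. XMP fell by 1.14 ± 0.23 against Runx1-deleted GMP (adjusted p = 0.00367). The mean of Runx1-deleted GMP was 2.02-fold that of wild-type GMP, and the difference of 0.75 ± 0.23 was not called (adjusted p = 0.089). It passed with only those groups in the fit (0.0164), with the gene-length trend of each library removed (0.0130) and without wild-type MEP replicate 1 (0.0296) or replicate 2 (0.0293). In MEP the deletion gave 0.46 ± 0.23 (adjusted p = 0.27; 0.0401 with the length trend removed). Wild-type GMP minus wild-type MEP was 0.42 ± 0.23 (adjusted p = 0.241), and passed with the length trend removed (0.0448) and without wild-type MEP replicate 1 (0.0479).

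Eng encodes endoglin, the CD105 coreceptor for TGF-beta and BMP ligands. Its transcript was abundant although every gate was CD105-. XMP had 53.3 and 46.3 RPKM, Runx1-deleted GMP 31.5 and 43.2, wild-type GMP 25.8 and 19.0, Runx1-deleted MEP 36.5 and 31.2, and wild-type MEP 42.6 and 43.4. Between 11.7% and 31.1% of the tested genes were more abundant. Wild-type GMP was lowest and XMP highest, without overlap to their neighbours, while Runx1-deleted GMP overlapped both MEP groups. Wild-type GMP fell below wild-type MEP by 0.92 ± 0.21 (adjusted p = 0.00689), and that call was lost without wild-type GMP replicate 2 (0.0813).

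The differences of Eng after deletion had opposite signs in the 2 gates, and neither was called. They were 0.71 ± 0.21 in GMP (adjusted p = 0.0765) and -0.34 ± 0.21 in MEP (adjusted p = 0.36), and the difference between these was 1.05 ± 0.29 (adjusted p = 0.134). The GMP value passed with limma-voom (0.0469), with quantile normalization (0.0246), with libraries blocked by library number (0.0271) and without either wild-type MEP library (0.0479 each). The difference passed with quantile normalization (0.0430) and with that block (0.0452). XMP differed from Runx1-deleted GMP by 0.42 ± 0.21 (adjusted p = 0.219) and from Runx1-deleted MEP by 0.54 ± 0.21 (adjusted p = 0.157), neither past the threshold.

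Procr encodes the endothelial protein C receptor, which presents protein C for activation and is a marker of mouse blood stem cells. Its level was low, with 0.191 and 0.046 RPKM in XMP, 1.25 and 1.85 in Runx1-deleted GMP, and 1.62 and 2.23 in wild-type GMP. Runx1-deleted MEP had 0.961 and 0.236 RPKM and wild-type MEP 1.35 and 1.80. XMP rested on 15 reads over both libraries and lay under all others, and Runx1-deleted MEP lay between XMP and the 3 remaining groups, which overlapped. XMP fell against Runx1-deleted GMP by 1.18 ± 0.23 (adjusted p = 0.00309). As a ratio of reads XMP held 0.077 of Runx1-deleted GMP (95% counting interval 0.042 to 0.129). Runx1-deleted MEP had 0.36 of the reads of wild-type MEP (0.269 to 0.475), but the deleted libraries themselves had 54 and 15 reads, and the fitted difference of -0.72 ± 0.23 was not called (adjusted p = 0.0856). It passed without Runx1-deleted MEP replicate 1 (0.0319).

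Cd93 encodes a transmembrane lectin-like receptor of endothelium, monocytes and early progenitors. It had 27 and 30.3 RPKM in XMP, 71.8 and 86.1 in Runx1-deleted GMP, and 56.2 and 62.2 in wild-type GMP. Levels were lower in MEP, with 9.41 and 8.47 RPKM after deletion and 9.39 and 14.9 in wild type. XMP stood between the gates without overlap to any other group. It fell by 1.43 ± 0.21 against Runx1-deleted GMP (adjusted p = 0.000476) and rose by 1.58 ± 0.21 against Runx1-deleted MEP (adjusted p = 0.00152). Wild-type GMP exceeded wild-type MEP by 2.23 ± 0.21 (adjusted p = 1.52e-05). Deletion in GMP gave 0.41 ± 0.21 (adjusted p = 0.276), with both deleted libraries above both wild-type ones. The authors' deposited table gave this comparison of Cd93 an FDR-corrected p of 0.028. In MEP the deletion effect was -0.37 ± 0.21 (adjusted p = 0.332), and it was called with the length trend removed (-0.66 ± 0.13, adjusted p = 0.0136). The effect in GMP minus that in MEP was 0.78 ± 0.30 (adjusted p = 0.332), and it passed without wild-type MEP replicate 1 (0.0467).

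Esam encodes an adhesion molecule of endothelial tight junctions, also present on platelets, megakaryocytes and mouse blood stem cells. XMP had 8.29 and 8.11 RPKM, Runx1-deleted GMP 0.570 and 1.01, wild-type GMP 0.081 and 0.026, Runx1-deleted MEP 3.80 and 3.25, and wild-type MEP 1.26 and 1.41. No libraries of different groups overlapped. XMP rose by 1.03 ± 0.17 against Runx1-deleted MEP (adjusted p = 0.00444) and by 2.37 ± 0.17 against Runx1-deleted GMP (adjusted p = 2.07e-06). Wild-type GMP lay below wild-type MEP by a log2 difference of -1.15 ± 0.17 (adjusted p = 0.000451).

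Esam was also higher after deletion in both gates. It rose in Runx1-deleted MEP by 0.95 ± 0.17 (adjusted p = 0.00605) and in Runx1-deleted GMP by 0.75 ± 0.17 (adjusted p = 0.0265). Counted as reads, Runx1-deleted MEP held 2.61 times wild-type MEP (95% counting interval 2.21 to 3.08), and Runx1-deleted GMP 12.4 times wild-type GMP (5.85 to 31.3), a ratio of 144 reads to 7. The GMP call needed every one of its 4 libraries: adjusted p was 0.0577 or 0.288 when Runx1-deleted GMP replicate 1 or 2 was left out, and 0.0707 or 0.188 when wild-type GMP replicate 1 or 2 was. It was also lost with no filter (0.0694) and with quantile normalization (0.0712). In MEP it was lost with only the groups compared in the fit (0.0730) and without Runx1-deleted MEP replicate 1 (0.0566). The authors' deposited table gave Esam an FDR-corrected p of 1.0 in either comparison. The effect in GMP minus that in MEP was -0.20 ± 0.24 (adjusted p = 0.999), and its sign turned with a pseudocount of 0.1 (1.18 ± 0.45, adjusted p = 0.382) and on reads (2.28 ± 0.68, adjusted p = 0.238).

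Pecam1, the gene of CD31, encodes an adhesion receptor of endothelium, platelets and leukocytes. Its level was 21.0 and 19.97 RPKM in XMP, 40.6 and 37.9 in Runx1-deleted GMP, and 43.1 and 36.9 in wild-type GMP. Deleted MEP had 14.2 and 14.5 RPKM and wild-type MEP 13.04 and 18.1. Genotypes overlapped within each gate, and XMP lay between the gates. XMP fell by 0.90 ± 0.18 against Runx1-deleted GMP (adjusted p = 0.00404; 0.0503 without Runx1-deleted GMP replicate 1). Against Runx1-deleted MEP the difference of 0.48 ± 0.18 was not called (adjusted p = 0.158), and it passed with lanes 4 and 5 alone (0.0318), with the length trend removed (0.0207) and without wild-type MEP replicate 1 (0.0456) or replicate 2 (0.0458). Wild-type GMP exceeded wild-type MEP by 1.32 ± 0.18 (adjusted p = 0.000277). The deletion effect was -0.02 ± 0.18 in GMP (adjusted p = 0.954) and -0.09 ± 0.18 in MEP (adjusted p = 0.798), with a sign that turned in some settings.

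Cdh5, the gene of the endothelial cadherin VE-cadherin, and Mcam, the gene of the endothelial and pericyte antigen CD146, were nearly silent. Cdh5 had between 0.012 and 0.107 RPKM, or 1 to 16 reads in a library and 117 in all 10. Its reads gave Runx1-deleted over wild-type ratios of 1.001 in GMP (95% counting interval 0.466 to 2.25) and 0.921 in MEP (0.521 to 1.62). Mcam had 22 reads in all, with 4 in each XMP library, 5 and 3 in Runx1-deleted GMP, and 1 and 0 in wild-type GMP. In MEP there were 1 and 3 reads after deletion and 0 and 1 in wild type. The counts of 0 allow up to 0.0498 RPKM in wild-type GMP replicate 2 and 0.0285 in wild-type MEP replicate 1. The reads of Mcam gave Runx1-deleted over wild-type ratios of 4.81 in GMP (95% counting interval 0.644 to 213) and 4.11 in MEP (0.406 to 202). Both intervals include 1, and other comparisons of Mcam were not tested.

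**Figure D3:**
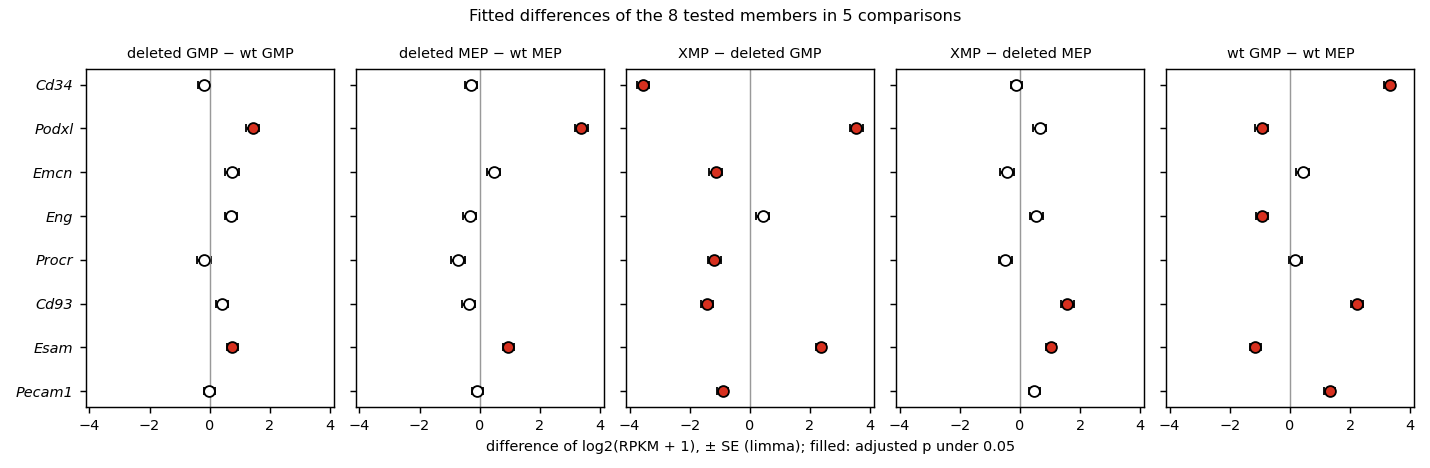
Fitted differences of log2(RPKM + 1) with SE bars for the 8 tested genes in 5 comparisons, drawn on 1 common axis. Filled points had an adjusted p under 0.05 in limma. Podxl and Esam are the filled points in both deletion comparisons, and XMP minus Runx1-deleted GMP has 7 filled points with Cd34 at -3.55 and Podxl at 3.54.

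Podxl and Esam were the genes of the 8 that were called after deletion in both gates. In GMP 2 of the 8 tested genes were called, both higher in Runx1-deleted cells, where 5.22% of all 10905 genes were called and 3.15% were higher. The median difference was 0.56 over the 8 and 0.05 over all genes. In MEP the same 2 of 8 were called, where 8% of all genes were called and 3.97% were higher, with medians of -0.20 and 0.03. On log2(RPKM + 1) the difference between the effects was called for 1 of 8, Podxl, with the lower value in GMP, where 1.74% of all genes were called and 0.789% were lower. With a pseudocount of 0.1 (limma) or on reads (limma-voom) 0 of 8 were called, where 80 and 55 of all 10905 genes were called. An unadjusted p under 0.05 was reached by 3 of 8 in either, and by 1013 and 1049 of all genes. On reads the effect of Podxl was 4.45 in GMP and 4.20 in MEP (limma-voom, adjusted p of the difference = 0.999). With 8 genes, counts this small carry little weight beyond the genes themselves.

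The comparison of XMP with the other Runx1-deleted gates asks what marks the cells that carry both CD16/32 and CD150. Against Runx1-deleted GMP 7 of 8 genes were called, where 19.7% of all genes were called, 9.75% higher and 9.9% lower. Podxl and Esam rose, and Cd34, Cd93, Procr, Emcn and Pecam1 fell. Against Runx1-deleted MEP 2 of 8 were called, Cd93 and Esam, both higher, where 7.74% of all genes were called and 5.14% were higher. Beside them 7 of 10 granulocyte-monocyte markers and 5 of 10 megakaryocyte markers were higher in XMP than in Runx1-deleted MEP, and of 10 erythroid markers 7 were lower and 2 higher. The summed level of the erythroid markers was 538 to 893 RPKM in XMP and 1572 to 1791 in Runx1-deleted MEP. After deletion 5 of these 10 rose in MEP, where 3.97% of all genes rose. In GMP 3 of them rose and 1 fell, where 5.22% of all genes were called. The part of these lineage genes in the results was not tested. Podxl had 1.57-fold the mean of Runx1-deleted MEP there and was not called (log2 0.66 ± 0.22, adjusted p = 0.103). With quantile normalization Podxl (0.0477) and Eng (0.0369) passed there too. These comparisons share the XMP libraries. The authors' deposited table gave XMP against Runx1-deleted GMP FDR-corrected p-values of 1.95e-71 for Cd34, 6.43e-12 for Podxl, 2.81e-08 for Cd93, 0.0138 for Esam and 0.0385 for Pecam1. Procr and Emcn, called here, each had 1.0 in the authors' deposited table. For XMP against Runx1-deleted MEP the authors' deposited table gave 0.000169 for Cd93 and 0.859 for Esam.

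Between the wild-type gates, where the comparison asks how GMP and MEP differ without the deletion, 6 of 8 genes were called, against 21.6% of all genes, 11.7% higher and 9.83% lower. Cd34, Cd93 and Pecam1 were higher in wild-type GMP, and Esam, Eng and Podxl were lower. By Baggerley's test, the authors' deposited table gave this comparison FDR-corrected p-values of 6.74e-78 for Cd34 and 2.64e-12 for Cd93. It gave 0.000622 for Pecam1 and 0.00916 for Eng. Esam and Podxl, called here with limma, did not pass in that table even before correction, with uncorrected p-values of 0.123 and 0.171. The Podxl call (-0.94 ± 0.22, adjusted p = 0.0087) was lost without wild-type GMP replicate 1 (0.0563). All 10 granulocyte-monocyte markers were higher in wild-type GMP and 9 of 10 megakaryocyte markers were lower, beside these results, and their part in them was not tested.

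Markers of megakaryocytes were also looked at beside Podxl and Esam. The summed level of 10 such markers was 1502 to 1871 RPKM in XMP, 131 to 156 in Runx1-deleted GMP, and 41.6 to 53.1 in wild-type GMP. It was 706 to 844 RPKM in Runx1-deleted MEP and 820 to 905 in wild-type MEP. Of the 10 markers 4 rose and 0 fell in Runx1-deleted GMP against wild type, where 3.15% of all genes were higher. The median difference was 0.73 over the 10 and 0.05 over all genes. In Runx1-deleted MEP against wild type 3 rose and 0 fell, where 3.97% of all genes were higher, with medians of 0.50 and 0.03. All 10 rose in XMP against Runx1-deleted GMP, where 9.75% of all genes were higher. Among the 10, Itga2b, the gene of CD41, had 652 and 682 RPKM in XMP, although every gate was CD41-. In MEP the summed levels of the genotypes overlapped, with Pf4, platelet factor 4, at 220 and 158 RPKM after deletion and 590 and 466 in wild type. The 3 that rose there were Treml1, a platelet receptor of the TREM family (1.78 ± 0.21, adjusted p = 0.000376), and the platelet glycoprotein genes Gp5 (1.01 ± 0.18, adjusted p = 0.00579) and Gp1ba (1.21 ± 0.24, adjusted p = 0.0118). No marker of this list was at 0 in a whole group. Their part in the results for Podxl and Esam was not tested.

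Genes of endothelial cells were in large part silent. Of 22 such markers 15 stayed under 0.5 RPKM in all 10 libraries, among them Cldn5 of endothelial tight junctions, the endothelial nitric oxide synthase Nos3, the transcription factor Sox17 and the phosphatase Ptprb. The other 7 were tested, among them Tek and Erg, which blood stem cells also express. The summed level of the 22 was 196 to 214 RPKM in XMP, 134 to 152 in Runx1-deleted GMP, and 62.1 to 69.8 in wild-type GMP, and in MEP 110 to 118 after deletion and 85.1 to 112 in wild type. Among them the VEGF receptor gene Kdr had 24.1 and 18.9 RPKM in XMP, 1.22 and 1.49 in Runx1-deleted GMP, and 0.032 and 0.035 in wild-type GMP. With 7.28 and 6.73 RPKM, Runx1-deleted MEP lay above wild-type MEP, at 1.21 and 1.5. Kdr rose after deletion in GMP (1.19 ± 0.18, adjusted p = 0.00261) and in MEP (1.77 ± 0.18, adjusted p = 0.000159). Tek, the angiopoietin receptor, rose in GMP (2.14 ± 0.21, adjusted p = 0.000165), as did Egfl7, a secreted endothelial factor (1.22 ± 0.22, adjusted p = 0.00652). Of the 7 tested, 4 rose in GMP and 2 in MEP, where 3.15% and 3.97% of all genes were higher. Of 11 stromal markers 9 stayed under 0.5 RPKM in all libraries.

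**Figure D4:**
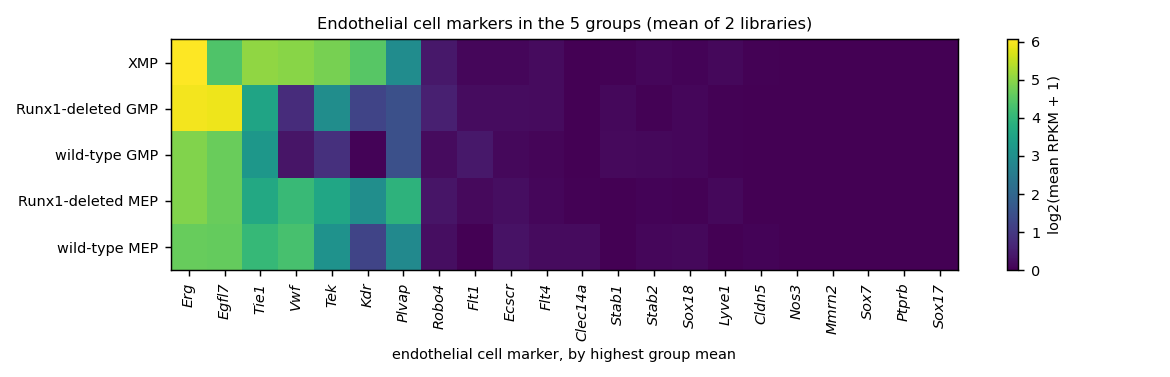
Level of 22 endothelial cell markers, as log2 of the mean RPKM + 1 of 2 libraries, in the 5 groups (rows), ordered by the highest group mean (columns). The colour runs from 0 (dark) to about 6 (yellow). The 15 markers on the right stay under 0.5 RPKM in every library, and Kdr, Tek, Tie1 and Erg are brightest in XMP.

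Stem cell markers were called in both directions. Of 21 tested, 3 rose and 1 fell in Runx1-deleted GMP (median 0.31, against 0.05 for all genes), and 3 rose and 6 fell in Runx1-deleted MEP (median -0.39, against 0.03). Over all genes 5.22% were called in GMP and 8% in MEP. Cd27, a TNF-family receptor, fell in MEP (-1.49 ± 0.17, adjusted p = 0.000302).

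Around Eng, 15 of 22 TGF-beta and BMP pathway genes were tested. After deletion 3 of them passed in GMP and 1 in MEP, where 5.22% and 8% of all genes passed. Acvr1b, an activin receptor, had 33.1 and 32.3 RPKM in Runx1-deleted GMP against 14.1 and 10.3 in wild-type GMP, and it rose by 1.37 ± 0.21 (adjusted p = 0.00287). It also rose in Runx1-deleted MEP by 1.20 ± 0.21 (adjusted p = 0.00558) and was the single gene of the list called there. Id1 and Id2 are targets of BMP and TGF-beta signalling. Id1 rose in Runx1-deleted GMP by 0.81 ± 0.18 (adjusted p = 0.0256), and Id2 fell there by 1.61 ± 0.30 (adjusted p = 0.0095). XMP differed from Runx1-deleted GMP in 5 of the 15, where 19.7% of all genes were called. The coreceptor betaglycan (Tgfbr3) was higher in XMP there by 3.74 ± 0.28 (adjusted p = 2.57e-06).

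Around Procr, the thrombin receptor gene F2r had 325 and 306 RPKM in XMP, 34.2 and 38.4 in Runx1-deleted GMP, and 3.70 and 3.29 in wild-type GMP. Its level was 143 and 158 RPKM in MEP after deletion and 99.8 and 122 in wild-type MEP. It rose in Runx1-deleted GMP by 3.05 ± 0.17 (adjusted p = 2.74e-06), more than in MEP by 2.61 ± 0.24 (adjusted p of the difference = 0.000393). Thrombomodulin (Thbd), which with thrombin activates protein C, rose in Runx1-deleted GMP by 0.81 ± 0.20 (adjusted p = 0.0427). Protein S (Pros1), the cofactor of protein C, was higher in XMP than in Runx1-deleted MEP by 1.28 ± 0.23 (adjusted p = 0.00646). Of the 7 tested genes 4 were higher in XMP than in Runx1-deleted GMP, where 9.75% of all genes were higher. Against Runx1-deleted MEP 4 were higher, where 5.14% of all genes were higher. Procr itself differed there by -0.48 ± 0.23, which was not called (limma, adjusted p = 0.277).

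Around Esam, Pecam1 and Cdh5, 17 of 20 junction genes and signalling partners were tested. In Runx1-deleted MEP 6 rose, with a median of 0.37 over the list, and the other 11 were not called. Of all genes 3.97% rose there. In Runx1-deleted GMP 3 rose and 1 fell, where 5.22% of all genes were called. Tjp1, the scaffold ZO-1 of tight junctions, had 6.22 and 6.86 RPKM in Runx1-deleted GMP against 0.441 and 0.708 in wild-type GMP (2.26 ± 0.25, adjusted p = 0.000424), and 15.8 and 17.8 in Runx1-deleted MEP against 1.44 and 3.36 in wild-type MEP (2.44 ± 0.25, adjusted p = 0.000188). Jam3, a junctional adhesion molecule, had 5.23 and 2.73 RPKM in Runx1-deleted MEP against 0.140 and 0.179 in wild-type MEP (2.06 ± 0.22, adjusted p = 0.000214). Cdh1, the epithelial cadherin, fell in GMP, with 0.02 and 0.03 RPKM in Runx1-deleted GMP against 6.20 and 6.58 in wild-type GMP (-2.84 ± 0.13, adjusted p = 6.2e-07).

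Around the sialomucins, 12 of 15 relatives and partners were tested. In Runx1-deleted GMP 2 of the 12 rose, where 3.15% of all genes were higher. Selp, P-selectin, had 21.2 and 16.6 RPKM in Runx1-deleted GMP against 3.39 and 2.47 in wild-type GMP (2.34 ± 0.22, adjusted p = 0.000122), and it rose in Runx1-deleted MEP by 1.01 ± 0.22 (adjusted p = 0.0178). Podxl2, the relative of Podxl named endoglycan, stayed under 0.5 RPKM in all libraries. In Runx1-deleted MEP the selectin ligand Selplg fell by 0.77 ± 0.18 (adjusted p = 0.0234).

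Around Cd93 and Mcam, 6 of 10 relatives and ligands were tested. In Runx1-deleted GMP 3 fell and 1 rose, where 5.22% of all genes were called. Lgals1, galectin 1, had 241 and 305 RPKM in Runx1-deleted GMP against 861 and 915 in wild-type GMP (-1.71 ± 0.25, adjusted p = 0.00197), and 23.3 and 26.4 in Runx1-deleted MEP against 344 and 198 in wild-type MEP (-3.35 ± 0.25, adjusted p = 2.65e-05). Mmrn1, the platelet protein multimerin 1, was higher in XMP than in Runx1-deleted GMP by 3.65 ± 0.35 (adjusted p = 1.79e-05).

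Other genes with a pattern like that of each member were sought over the 10 libraries by the mean absolute difference of log2(RPKM + 1), each gene centred on its own mean, among 10333 genes. For Podxl the nearest were Alox12, platelet 12-lipoxygenase, at 0.37 and Clec1b, the platelet receptor CLEC-2, at 0.38, where Podxl itself deviated by 1.85 from its mean. For Cd34 they were Lcp1, the leukocyte actin bundler plastin 2, at 0.14 and Mtus1 at 0.16, against its own 1.66. Esam was nearest to 2610528J11Rik at 0.13 and the cannabinoid receptor gene Cnr2 at 0.15, against 0.95. Cd93 was nearest to Plxnd1, a semaphorin receptor, at 0.17 and Lpcat2 at 0.21, against 1.06. Pecam1 was nearest to Fut8 at 0.05 and Asah1 at 0.06, against 0.58, and Eng to Gkap1 at 0.10 and Prkd2 at 0.11, against 0.34. For the low genes Procr (Uap1 and Rcbtb1) and Emcn (Acy1 and Evi5) the nearest lay at 0.14 to 0.19. These are descriptions of 10 libraries that share lanes and depth, with no test.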

How the data were processed

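RNA-seq of 10 libraries was analysed from 1 deposited table. Per the file headers it holds RPKM values and, for each pair of groups, the authors' p-values and FDR-corrected p-values of Baggerley's test, used only where quoted. Per the submitters' processing notes mm9 was the build; an aligner or counter is not given in the sources used here. Per the labels' protocols the kits were TruSeq V2 LT or NEBNext Ultra, and the kit of each library was not used here. No source states strand, so that overlapping antisense genes cannot be told apart.

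Whole reads were recovered from the RPKM values: for all 19336 genes above 0 every value was whole within 0.01 read. Log2(RPKM + 1) was fitted in limma 3.58.1 (R 4.3.3, eBayes with trend, 5 residual degrees of freedom) to all libraries by group, for 10905 genes. Counting intervals are exact at 95%. Recovery and fit were tested on simulated data.

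Named genes were the 10 members, up to 3 called genes with the smallest adjusted p in each list and comparison (the text prints a selection), and the 2 genes most like each member; Runx1, Cldn5, Nos3, Sox17, Ptprb, Tie1, Erg, Pf4 and Podxl2 were added after their values were seen. Members and lists were chosen with earlier results of these data known. Alternatives were a pseudocount of 0.1, no filter or a mean of 5 RPKM, quantile normalization, no variance trend, fewer groups, the length trend removed, lanes 4 and 5, replicate blocks and leaving out each library. limma-voom on recovered reads, added after seeing the data, called 457 genes in GMP and 842 in MEP. Some results of the lists are not reported here.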

Additional observations from a re-analysis of the deposited data

Results flagged for a closer look

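A test of the difference between the gates in the deletion effect on Podxl passed on 1 scale. On log2(RPKM + 1) the effect in GMP minus that in MEP was -1.94 ± 0.31 (limma, adjusted p = 0.0108), with 1.87 and 2.001 RPKM in Runx1-deleted GMP against 0.071 and 0.126 in wild-type GMP, and 25.7 and 16.7 RPKM in Runx1-deleted MEP against 0.923 and 1.31 in wild-type MEP. As a ratio of reads the effect was 21.5 in GMP and 18.3 in MEP. The difference was -0.74 with a pseudocount of 0.1 (adjusted p = 0.722) and 0.24 with limma-voom (adjusted p = 0.999). It also lost its call without Runx1-deleted GMP replicate 1 (adjusted p = 0.0542), without replicate 2 (0.0591) and without wild-type GMP replicate 2 (0.0644).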

How the results depend on the processing

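Leaving aside single libraries, 462 of 486 fold changes of single genes kept their direction and their side of the threshold, 14 became called, 4 lost their call and 6 turned in sign. Those that turned were Cd34 in GMP with quantile normalization (0.17), Pecam1 in GMP with quantile normalization (0.0586) and with limma-voom (0.031), and, for the effect in GMP minus that in MEP, Esam with a pseudocount of 0.1 (1.18) and with limma-voom (2.28) and Podxl with limma-voom (0.24). The cause was not tested. Leaving out 1 library kept 453 of 480. The sign turned for Pecam1 in GMP (-0.13 to 0.0875), in MEP (-0.31 to 0.13) and in the difference (-0.15 to 0.29), and for Cd34 in the difference (-0.062 to 0.29) and in XMP minus Runx1-deleted MEP (-0.31 to 0.0761).

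The count of called genes was 2 in GMP, and 1 with no filter and 1 with a mean of 5 RPKM, where 5 of the 10 genes were tested; it was 3 with only the groups compared, with the length trend removed, with the block by library number and with limma-voom. In MEP it was 2, and 1 with a mean of 5 RPKM, 1 with only the groups compared and 4 with the length trend removed. For the difference it was 1, and 2 with quantile normalization and 2 with the block by library number. It was 0 with a pseudocount of 0.1, where 80 of all genes were called, and 0 with limma-voom, where 55 were. In either, 3 of 8 had an unadjusted p under 0.05, beside 1013 and 1049 of all genes. XMP against Runx1-deleted GMP gave 7, and 4 with a mean of 5 RPKM. XMP against Runx1-deleted MEP gave 2, and 1 with a mean of 5 RPKM and 4 with quantile normalization. Without 1 library the counts ran over 1 to 4 in GMP, 2 to 2 in MEP, 0 to 2 for the difference, 6 to 7 and 2 to 3 for XMP, and 5 to 7 between the wild-type gates. Calls over all genes ran over 233 to 1729 in GMP, 361 to 3427 in MEP, 55 to 475 for the difference, 1381 to 2790 and 305 to 1462 for XMP, and 1636 to 3315 between the wild-type gates.

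Deviations of libraries with the same number in the titles had correlations of -0.06 in GMP, 0.30 in MEP, -0.47 and 0.78 for XMP against Runx1-deleted GMP and MEP, and -0.11 between the wild-type gates, and were not taken as pairs. By library number they were 0.06, 0.30, 0.47, 0.78 and -0.11 in the same order, and no source ties these numbers to animals or days. The replicate block of the titles left the counts at 2, 2, 1, 7, 2 and 6 and changed no call of these genes. Lanes 4 and 5 alone could not be fitted in GMP or between the wild-type gates, and gave 2 in MEP. Over all genes quantile normalization gave 306 higher and 306 lower in GMP, against 343 and 226, and 626 and 526 in XMP minus Runx1-deleted MEP, against 560 and 284; limma-voom gave 38 and 17 in the difference, against 104 and 86. Procr, Emcn, Esam in wild-type GMP, Cdh5 and Mcam are limited by depth, and 2 libraries per group limit every value.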
